A study of Sus scrofa with 12 samples.

Results

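The apolipoprotein cluster APOA1, APOC3, APOA4 and APOA5 is a run of neighbouring genes that encode protein components of plasma lipoproteins. All 4 genes were found by symbol among the 31694 rows of each liver mRNA library. They were chosen by earlier results on these same libraries, namely the difference between the breeds and the order of the pigs, so their breed values and orders are given as a description with no test. The liver was sampled from 3 Jinhua (JH) and 3 Landrace (LD) pigs, all uncastrated males of 70 days of age, with JH labelled as the experiment group and LD as the control group. The labels name no treatment. Each pig gave 1 mRNA library, and libraries are named by breed and pig number. The feeding state at sampling was not given in the sources used here.

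APOA1 is the main structural protein of high density lipoprotein (HDL) and activates the enzyme that esterifies cholesterol on it. APOA4 is made mostly by the small intestine during fat absorption in many mammals, and the liver makes it in amounts that vary with species and nutritional state. APOC3 and APOA5 are both made by the liver and act in opposite directions on plasma triglycerides, since APOC3 slows the lipolysis and uptake of triglyceride-rich particles and APOA5 promotes lipolysis. Hepatic transcription of the cluster is known to depend on nuclear receptors such as HNF4A and PPARA and on the membrane-bound factor CREB3L3.

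Expression is given as RPKM, the reads of a gene scaled to its length and to the depth of its library, so that levels can be compared between genes. The read totals behind the RPKM values, recovered from the values themselves, ranged from 5744909 in JH1 to 7914515 in LD3. The hepatocyte marker ALB, encoding albumin, lay between 27533 and 33599 RPKM in JH and between 37742 and 53893 RPKM in LD, which fits the labelled tissue. JH3 and LD3 had the lowest medians of log2 expression, near 2.10 against 2.35 to 2.42 in the other libraries, and the most 18S ribosomal RNA (RN18S), with 62257 and 20160 RPKM against 1570 to 7309 RPKM. Expression was compared in limma on log2(RPKM + 0.1) over 12991 genes, and calls needed p below 0.05 after Benjamini-Hochberg adjustment together with a log2 fold change, JH over LD, beyond 1 in either direction. This called 133 genes higher in JH, 1.02% of the genes tested, and 177 genes lower, 1.36%. Every JH value lay above every LD value in 10.8% of the genes tested and below in 12.5%. An unadjusted p below 0.05 in limma was found for 2320 of the 12991 genes. These values over all genes are the background for the counts in the gene lists below. In whole liver, fewer cells of a type and less RNA per cell cannot be told apart.

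APOA4 showed the widest gap between the breeds in the cluster. Its RPKM was 6705 for JH1, 1911 for JH2 and 846 for JH3, against 3.04 for LD1, 3.10 for LD2 and 19.6 for LD3. The JH and LD values did not overlap, JH1 stood highest and LD3 stood above the other LD libraries. The JH pigs averaged 3154 ± 3121 RPKM and the LD pigs 8.60 ± 9.57 RPKM (mean ± SD, n = 3 for each breed), giving 8.57 as the log2 fold change between breeds, JH over LD (standard error, SE, 0.84). The lowest JH value was 43.1 times the highest LD value.

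The size of the breed difference in APOA4 moved when single pigs were left out, while its direction held. Without JH1 the log2 fold change of APOA4 was 7.77, without JH3 it was 9.26 and without LD3 it was 9.45. APOA4 stood at rank 10, 40 and 68 among all genes in JH1, JH2 and JH3. In LD1, LD2 and LD3 its ranks were 8159, 8175 and 2281. The LD values rested on few reads. LD1 held 30 reads (95% Poisson interval 20.2 to 42.8), LD2 held 34 reads (23.5 to 47.5) and LD3 held 216 reads (188 to 247). These exact intervals cover counting error only, since reads are not independent molecules, and the interval of LD3 lay above those of LD1 and LD2. The JH libraries held 53502, 20586 and 9094 reads of APOA4, and in JH1 these made up 0.931% of the read total behind the RPKM values.

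**Figure D1:**
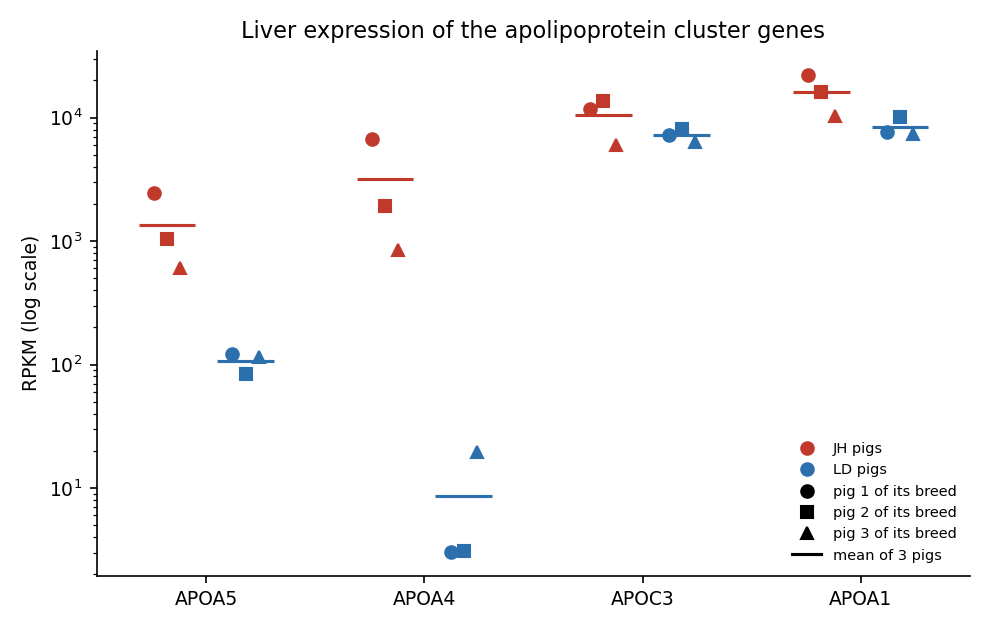
RPKM on a log scale of the 4 cluster genes in each library, in RefSeq gene order, with JH pigs in red, LD pigs in blue, 1 symbol per pig number and a horizontal line at the mean of 3 pigs. APOA4 and APOA5 lie far apart between the breeds, APOA1 is just apart (10301 RPKM in JH3 against 10116 RPKM in LD2) and APOC3 overlaps.

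APOA5 had the next widest gap. Its RPKM was 2439 for JH1, 1032 for JH2 and 605 for JH3, against 121 for LD1, 83.9 for LD2 and 115 for LD3. Every JH pig lay above every LD pig, the JH pigs were again widely spread and the LD pigs lay close together. The JH pigs averaged 1359 ± 959 RPKM and the LD pigs 107 ± 20.01 RPKM (mean ± SD, n = 3 for each breed), with a log2 fold change of 3.45 (SE 0.45). The lowest JH value was 4.99 times the highest LD value. APOA5 was covered by 9905 to 29634 reads in JH and by 1401 to 1926 reads in LD. It ranked 31, 79 and 111 among all genes in JH1, JH2 and JH3 and 555, 788 and 517 in LD1, LD2 and LD3.

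APOA1 was the most abundant of the 4 genes in every library. Its RPKM was 22277 for JH1, 16075 for JH2 and 10301 for JH3, against 7613 for LD1, 10116 for LD2 and 7399 for LD3. The breeds did not overlap, but JH3 and LD2 were almost equal, with a ratio of 1.02. The JH pigs averaged 16218 ± 5989 RPKM and the LD pigs 8376 ± 1511 RPKM (mean ± SD, n = 3 for each breed), with a log2 fold change of 0.90 (SE 0.34).

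APOC3 differed least between the breeds. Its RPKM was 11716 for JH1, 13675 for JH2 and 5966 for JH3, against 7245 for LD1, 8047 for LD2 and 6294 for LD3. JH1 and JH2 were above all LD pigs and JH3 was below all of them. The JH pigs averaged 10453 ± 4007 RPKM and the LD pigs 7195 ± 878 RPKM (mean ± SD, n = 3 for each breed), with a log2 fold change of 0.46 (SE 0.35), which was 0.22 without JH2 and 0.82 without JH3. By the rule for calls 2 of the 4 genes, APOA4 and APOA5, were past the limits, and in 3 of 4 the breeds did not overlap. Over all genes tested 1.02% were called higher in JH, and in 10.8% every JH value lay above every LD value. Since the genes were chosen on this comparison, these counts and the background shares given above are set side by side and nothing is read from them.

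The make-up of the cluster's transcripts differed between the breeds. The 4 genes together took 6.84% of the summed RPKM in JH1, 5.11% in JH2 and 3.03% in JH3, against 2.68% in LD1, 3.25% in LD2 and 2.52% in LD3. The share averaged 4.99% ± 1.91 over the JH pigs and 2.82% ± 0.386 over the LD pigs (mean ± SD, n = 3 for each breed), and the share of JH3 lay below that of LD2. The summed RPKM includes RN18S, at 62257 of 585703 RPKM in JH3 and 2108 of 561390 RPKM in LD2. The 4 genes summed to 17719 RPKM in JH3 and 18250 RPKM in LD2. By these values the share of JH3 would lie above that of LD2 if RN18S were left out of the sum. APOA1 and APOC3 made up most of the sum in every library. APOA4 made up 15.5%, 5.84% and 4.78% of the cluster's RPKM in JH1, JH2 and JH3, and 0.0203%, 0.0170% and 0.142% in LD1, LD2 and LD3. APOA5 made up 3.16% to 5.65% in JH and 0.460% to 0.832% in LD. Set against APOA1, the transcript of the HDL protein, APOA4 stood at 30.1%, 11.9% and 8.22% of its RPKM in JH1, JH2 and JH3 and at no more than 0.266% in LD.

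**Figure D2:**
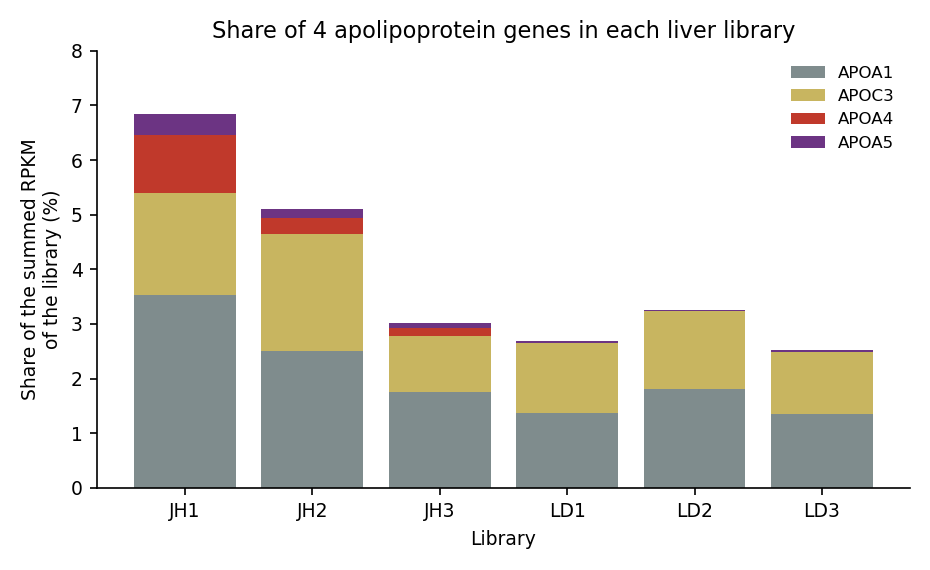
Stacked bars of the share of each library's summed RPKM (percent, axis from 0) taken by the 4 cluster genes in the 6 libraries. The summed RPKM includes RN18S. APOA1 and APOC3 make up most of each bar, and the APOA4 layer is visible in JH libraries only, where it reaches 15.5% of the cluster's RPKM in JH1.

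The order of the JH pigs was the same in 3 of the 4 genes. JH1 was above JH2 and JH2 above JH3 for APOA1, APOA4 and APOA5, and for APOC3 JH2 was above JH1. JH3, the JH library with the lowest median expression, was lowest in all 4 genes, and these orders held with all libraries shifted to the same median. This order of JH1, JH2 and JH3 was the most frequent among the genes tested, held by 29.6% of 12991 genes and by 43.1% of the 686 genes with a mean of at least 100 RPKM. The spread between JH pigs was wide for APOA4 and APOA5. APOA4 differed 7.92-fold and APOA5 4.03-fold between the highest and lowest JH pig, and 2.44% and 6.78% of the genes tested had a range on the log2 scale at least as large. The range of APOC3 and APOA1 was 2.29-fold and 2.16-fold, reached by 22.4% and 26.0% of the genes tested. With the libraries shifted to the same median these shares were 3.26% for APOA4, 9.50% for APOA5, 34.1% for APOC3 and 35.9% for APOA1.

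The LD pigs followed no common order. APOC3 and APOA1 both had LD2 highest and LD3 lowest, an order held by 32.6% of the genes tested. APOA5 had LD1 highest and LD2 lowest, and APOA4 had LD3 highest and LD1 lowest. With the libraries shifted to the same median the LD order changed in all 4 genes, though LD2 stayed highest for APOC3 and APOA1 and LD3 for APOA4. APOA4 differed 6.46-fold between LD pigs, a range reached by 2.14% of the genes tested, and the other 3 genes differed at most 1.45-fold. PCK1, a gluconeogenic enzyme that rises on fasting, was picked for its spread after the values were seen and was at 753, 85.0 and 28.0 RPKM in JH1, JH2 and JH3 and at 99.4 to 169 RPKM in LD. Its level in JH1 was 26.9 times that in JH3, and its part in the order of the cluster genes was not tested.

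In RefSeq annotation of the assembly Sscrofa11.1 the genes stand in the order APOA5, APOA4, APOC3 and APOA1, with ZPR1, BUD13 and CADM1 on the side of APOA5 and SIK3, PAFAH1B2, SIDT2, TAGLN, PCSK7, RNF214, BACE1 and CEP164 on the side of APOA1. The files were made on an earlier build, so no positions are given. Of these 11 neighbours tested, 1 was called higher in JH and 0 lower by limma and by voom. Over all genes tested limma called 1.02% higher and 1.36% lower. An unadjusted p below 0.05 in limma was found for 3 neighbours, and the median log2 fold change of the list was -0.11 against 0.04 over all genes tested. The gene called was ZNF259, an older symbol of ZPR1, which encodes a zinc finger protein. Its RPKM was 142 for JH1, 69.2 for JH2 and 78.8 for JH3, against 19.3 for LD1, 29.8 for LD2 and 26.9 for LD3. All JH pigs lay above all LD pigs. The log2 fold change was 1.88 (SE 0.32, adjusted p = 0.0245 from limma), and the call was lost without LD1 (adjusted p = 0.105), without LD2 (adjusted p = 0.0604) and without LD3 (adjusted p = 0.0585). The RefSeq record of ZPR1 overlaps that of APOA5, and the library kit was not stated to keep strand, so reads of these genes cannot be told apart where they overlap. ZNF259 stood at 5.81%, 6.71% and 13.02% of the RPKM of APOA5 in JH1, JH2 and JH3 and at 15.9%, 35.5% and 23.3% in LD1, LD2 and LD3. A long noncoding RNA overlaps APOA4 in RefSeq and was not analysed here.

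The other neighbours were not called. BACE1, a protease of amyloid precursor protein, had 9.49, 16.2 and 12.6 RPKM in JH and 28.4, 33.8 and 17.3 RPKM in LD, without overlap (log2 fold change -1.02, adjusted p = 0.143). TAGLN, a smooth muscle protein, had a log2 fold change of -1.22 (adjusted p = 0.215), with SIK3 at -0.55, CADM1 at -0.64 and BUD13 at 0.41. Single libraries moved these values, with TAGLN at -0.77 without LD1, SIK3 at -0.89 without JH1, CADM1 between -1.02 without LD1 and -0.33 without LD2, and BUD13 at 0.0054 without JH1. The remaining 5 neighbours, PAFAH1B2, SIDT2, PCSK7, RNF214 and CEP164, lay between -0.11 and 0.13. Beyond CADM1 stands NXPE2, which was not in the list and is named after its value was seen, with a log2 fold change of -1.63 (SE 0.49) that was not called.

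**Figure D3:**
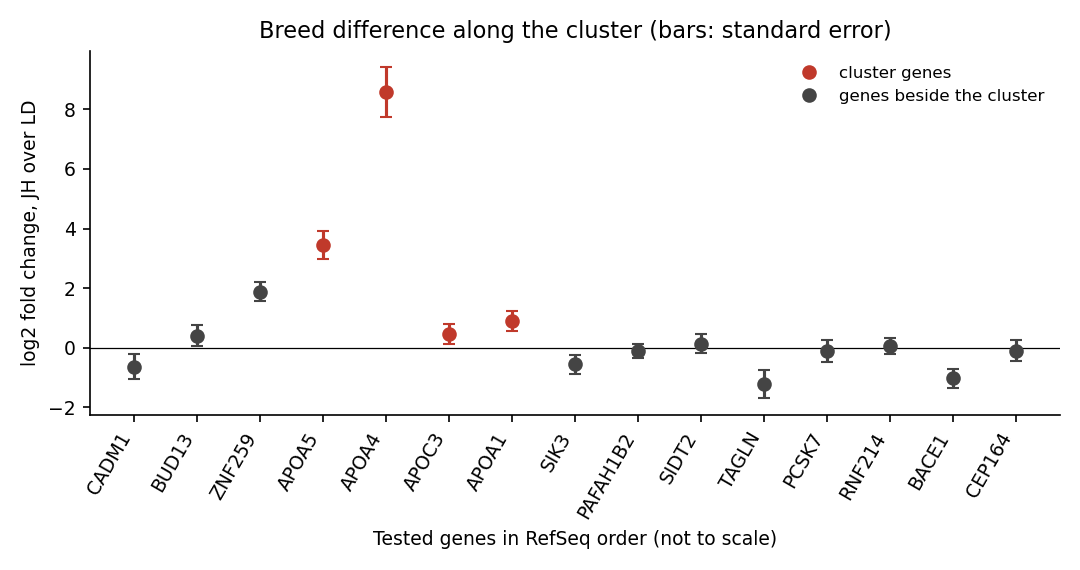
Log2 fold change of JH over LD with its standard error (bars) for the 4 cluster genes (red) and the 11 neighbours tested (grey), in RefSeq gene order and not to scale. APOA4 at 8.57, APOA5 at 3.45 and ZNF259 at 1.88 stand above the rest, and the genes from SIK3 onwards lie between -1.22 and 0.13.

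Of the other apolipoprotein genes, 8 were tested, 4 had log2 fold changes above 0 and 4 below, and 0 were called by limma or by its voom method on recovered reads, with 1 at an unadjusted p below 0.05. The median was -0.05. APOC2, which activates lipoprotein lipase, had 5355, 4945 and 2282 RPKM in JH and 1664, 2490 and 1456 RPKM in LD (log2 fold change 1.11, SE 0.38, adjusted p = 0.171). Without JH3 it was called, at a log2 fold change of 1.499 (adjusted p = 0.0346). APOE, a ligand of the lipoprotein receptors, ranged from 10741 to 21163 RPKM in JH and from 13454 to 17654 RPKM in LD. CLU, APOM and APOO had log2 fold changes of -0.45, -0.37 and 0.51 with adjusted p of 0.464, 0.632 and 0.395. Leaving out 1 library moved CLU to -0.24 (without JH3) or -0.68 (without JH2), APOM to -0.066 (without JH3) or -0.63 (without JH1) and APOO to 0.29 (without JH1). APOB, the scaffold of very low density lipoprotein, was listed at 0 in all 6 libraries, which can be a failed estimate in liver.

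Among 18 tested partners of HDL and triglyceride metabolism, 0 were called by limma or voom. An unadjusted p below 0.05 in limma was found for 9 of them, against 2320 of all 12991 genes tested. Of these partners 2 lay apart above LD and 7 apart below, against 10.8% and 12.5% of all genes tested. The median log2 fold change was -0.44. ANGPTL4, an inhibitor of lipoprotein lipase, was at 135, 135 and 136 RPKM in JH and at 25.3, 72.8 and 65.7 RPKM in LD (log2 fold change 1.45, adjusted p = 0.0939). LRP1, an endocytic receptor of lipoprotein remnants, had 3.56, 2.36 and 5.37 RPKM in JH and 5.91, 9.16 and 7.94 RPKM in LD, without overlap (log2 fold change -1.06, adjusted p = 0.146). LCAT, which APOA1 activates, was listed at 0 throughout.

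The factors known to regulate the cluster were compared next. Of 20 tested, 0 were called by limma or voom and 4 were at an unadjusted p below 0.05. Log2 fold changes above 0 were found for 14 of them, with a median of 0.16. CREB3L3 reached 391.6 for JH1, 313 for JH2 and 178 for JH3, against 131 for LD1, 160 for LD2 and 126 for LD3 (RPKM). Every JH pig lay above every LD pig, as in 10.8% of all genes tested. JH1, JH2 and JH3 stood in the same order as for APOA1, APOA4 and APOA5. That order was held by 29.6% of all genes tested and by 43.1% of those with a mean of at least 100 RPKM. The log2 fold change of CREB3L3 was 1.02 (SE 0.32, adjusted p = 0.142), and without JH3 the gene was called at 1.34 (adjusted p = 0.0299). HNF4A had 104 to 124 RPKM in JH and 76.7 to 111 RPKM in LD (log2 fold change 0.22, adjusted p = 0.682, and 0.053 without LD1), and PPARA had 6.85 to 19.4 RPKM in JH and 7.89 to 11.0 RPKM in LD (log2 fold change 0.37, adjusted p = 0.652, between 0.061 without JH1 and 0.80 without JH2). The forkhead factor FOXO1 and the orphan receptor NR2F2 lay apart below LD, with log2 fold changes of -1.09 (adjusted p = 0.108) and -0.82 (adjusted p = 0.131). CEBPA, a hepatocyte transcription factor, had a log2 fold change of 0.79 (adjusted p = 0.393), which was 0.28 without LD3.

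Other genes listed as responding to CREB3L3 moved in both directions. Of 9 tested, 3 were called higher in JH and 1 lower, against 1.02% and 1.36% of all genes tested. The median of the list was 0.69, and the list was written with earlier results of these data known. FGF21, a liver hormone of fasting, reached 23.1 for JH1, 10.3 for JH2 and 5.93 for JH3, against 0.475 for LD1, 0.940 for LD2 and 0.0852 for LD3 (RPKM). It rose on the log2 scale by 4.56 (SE 0.66, adjusted p = 0.0117) on 68 to 197 reads in JH and 1 to 11 in LD, and lost its call without LD1 (adjusted p = 0.0539). Its fold change depended on the pseudocount, with 3.08 on the log2 scale at a pseudocount of 1. HAMP, the iron hormone hepcidin, was at 515, 226 and 165 RPKM in JH and at 2.47, 25.7 and 21.2 RPKM in LD. It rose on the log2 scale by 4.58 (SE 0.80, adjusted p = 0.0269), lost its call without JH1 (adjusted p = 0.0629) and without JH2 (adjusted p = 0.0612), and had a log2 fold change of 3.51 without LD1.

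INHBE, a liver activin subunit, rose by 1.33 on the log2 scale (SE 0.28, adjusted p = 0.0442), a call that was lost in all 6 fits that left out a library, with adjusted p of 0.0501 to 0.133. FADS1, a fatty acid desaturase, fell by 3.72 on the log2 scale (SE 0.77, adjusted p = 0.0438), from 134 to 269 RPKM in LD to 6.04 to 67.4 RPKM in JH. This call was lost in 5 of 6 such fits and held without JH1. FADS2, the partner desaturase, had a log2 fold change of -1.56 (adjusted p = 0.192), and ELOVL2, CIDEC and CRP had 1.82, 0.69 and -0.75 (adjusted p of 0.152, 0.361 and 0.437). Without JH1 these were 1.21, 0.40 and -0.46, and without JH2 CRP was at -1.22. FADS2 was called without JH1 (log2 fold change -2.26, adjusted p = 0.0297) and was at -0.95 without JH3.

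**Figure D4:**
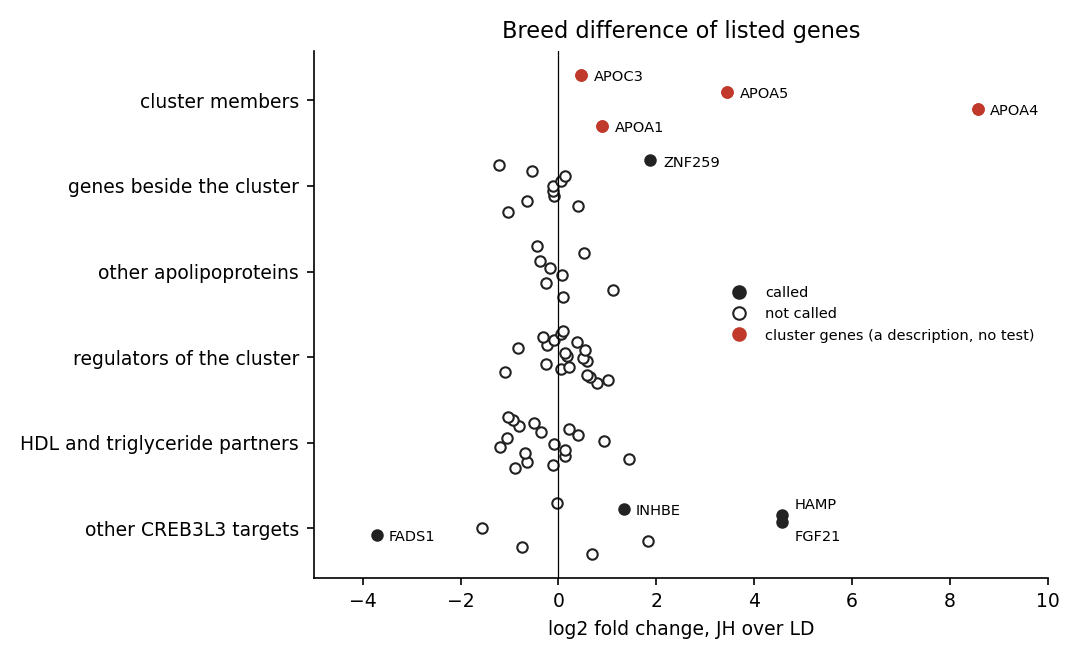
Log2 fold change of JH over LD (horizontal axis) for the tested genes of 6 lists, 1 point per gene. The 4 cluster genes are all filled in red, past the limits for calls or not, as a description without a test. Points of the other genes are filled where called, namely ZNF259, FGF21, HAMP, INHBE and FADS1.

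Markers of other cell types were read beside these genes. APOA4 is abundant in the small intestine, so 22 intestinal epithelium genes were listed, of which 6 were listed at 0 in all libraries and 10 fell below the filter. The enterocyte genes SI, ALPI and MEP1A were listed at 0 in all libraries, but so were the liver genes APOB and LCAT, so a 0 in every library gives no measure of a level. FABP2 and LCT were at 0 in JH and had 0 to 3 reads in each LD library. CDX2 was at 1.27, 1.14 and 0.806 RPKM in JH and at 0.0732, 0.132 and 0 RPKM in LD (log2 fold change 2.86, adjusted p = 0.0463, from 12 to 17 reads in JH and 0 to 2 in LD), and lost its call in all 6 fits without a library and at a pseudocount of 1, where its log2 fold change was 0.95. MUC13 was at 6.74, 28.8 and 3.32 RPKM in JH and at 2.40 to 3.56 RPKM in LD, with a log2 fold change of 1.57 (adjusted p = 0.247) that was 0.71 without JH2. The summed level of the list lay between 4.37 and 30.4 RPKM in JH and between 3.5003 and 4.13 RPKM in LD, and its upper end in JH was set by MUC13 in JH2.

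Of 10 endothelial and stellate genes listed 9 were tested, and all 9 had log2 fold changes below 0. Of these 9 genes 3 were called lower in JH, against 1.36% of all genes tested. They were COL1A1, COL3A1 and LRAT, with log2 fold changes of -2.77, -1.75 and -1.72 (adjusted p of 0.0144, 0.0159 and 0.0384). The summed level of the endothelial and stellate list lay between 92.9 and 98.0 RPKM in JH and between 202 and 360 RPKM in LD. Bile duct genes summed to 7.401 to 16.5 RPKM in JH and 16.9 to 37.1 RPKM in LD. Of 4 tested 1 was called lower, EPCAM (log2 fold change -1.55, adjusted p = 0.0301). Blood genes summed to 90.2 to 122 RPKM in JH and 213 to 393 RPKM in LD. Of 2 tested 1 was called lower, HBB (log2 fold change -1.39, adjusted p = 0.0459). Over all genes tested 1.36% were called lower. All tested genes of these lists had log2 fold changes below 0 and an unadjusted p below 0.05 in limma. COL3A1 lost its call without LD1 (adjusted p = 0.0812) and without LD2 (adjusted p = 0.0674), and LRAT, EPCAM and HBB each lost theirs in 5 of 6 fits without a library and held them without JH3. The most abundant gene of the bile duct list, SPP1, had a log2 fold change of -1.11 (adjusted p = 0.248), that of the macrophage and lymphocyte list, MARCO, had 0.60 (adjusted p = 0.455, and 1.04 without JH1), and that of the pancreas list, CELA2A, had 1.13 (adjusted p = 0.307, and 0.68 without LD3). Macrophage and lymphocyte genes summed to 26.0 to 73.0 RPKM in JH and 33.7 to 36.5 RPKM in LD, with 0 of 7 called by limma or voom and 1 at an unadjusted p below 0.05. Pancreas genes summed to 0.701 to 0.985 RPKM in JH and 0.197 to 0.551 RPKM in LD, with CELA2A the gene tested. Hepatocyte genes summed to 56966 to 62725 RPKM in JH and 71414 to 88923 RPKM in LD, with 0 of 9 called by limma or voom and 3 at an unadjusted p below 0.05. Of these 9 genes 5 lay apart below LD, against 12.5% of all genes tested. The part of cell composition in the values of the cluster genes was not tested.

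The likeness of profiles was measured by Pearson's r of log2(RPKM + 0.1) over the 6 libraries, which share the breed contrast and the depth of each library, so r is a description. Among the 4 genes it was 0.975 between APOA4 and APOA5, 0.895 between APOA1 and APOA5, 0.838 between APOA1 and APOC3, 0.835 between APOA1 and APOA4, 0.649 between APOA5 and APOC3 and 0.565 between APOA4 and APOC3. With each breed's mean removed, which leaves the spread between pigs of a breed, r was 0.748, 0.748, 0.815, 0.464, 0.568 and 0.288 for these pairs in the same order. The genes most like APOA4 were LOC100155812, ARG2, LOC100521322, PUS3 and CCT6A, with r of 0.998 to 0.989. Those most like APOA5 were ZNF567, SEC23A, ARG2, SLC22A2 and DCAF13, with r of 0.997 to 0.990, so that ARG2, a mitochondrial arginase, stood in both lists. Those most like APOA1 were NR1I2, LOC100152722, UGPP, LOC100156879 and ESRRA, with r of 0.998 to 0.994, and CREB3L3 stood at rank 9 with r of 0.992. For APOA5, APOA4 and APOC3 CREB3L3 stood at rank 318, 445 and 1010, with r of 0.921, 0.866 and 0.864. Those most like APOC3 were DEF6, TMEM222, PSMC3IP, SNAPC2 and RNF31, with r of 0.996 to 0.990.

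**Figure D5:**
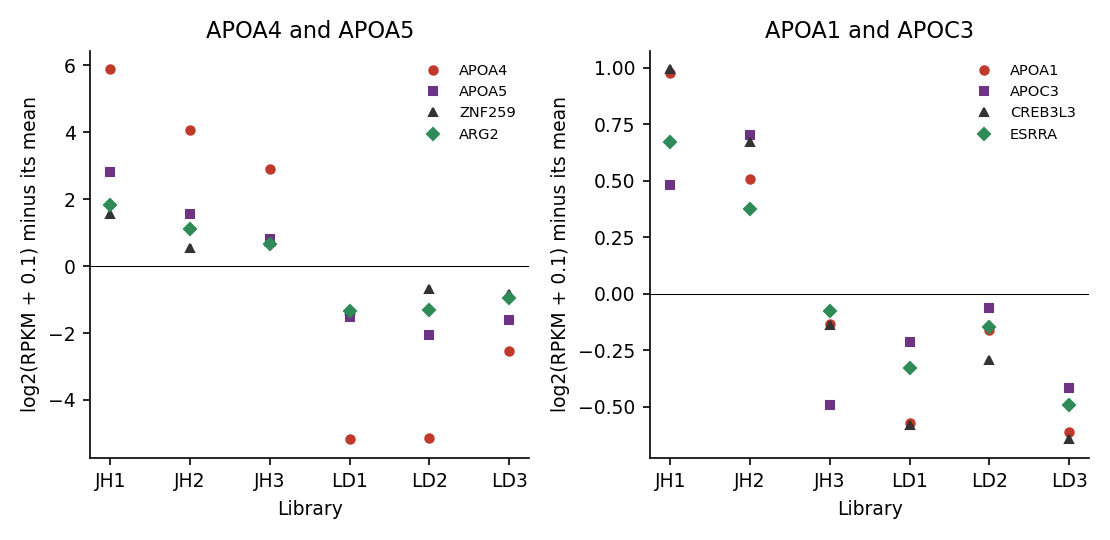
Level of each gene in each library as log2(RPKM + 0.1) minus its mean over the 6 libraries, 1 symbol per gene. APOA4 and APOA5 are shown with ZNF259 and ARG2, and APOA1 and APOC3 with CREB3L3 and ESRRA, on vertical axes of different range. JH1 is highest and JH3 lowest among JH pigs for APOA1, APOA4 and APOA5.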

How the data were processed

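Liver mRNA of 3 JH and 3 LD pigs was analysed, in 1 library per pig grouped by the public sample labels. The authors filtered the reads, aligned them with TopHat2 2.0.13, counted them per gene with gfold, tested genes with DEGseq and deposited RPKM values. Rows with a repeated identifier (2 per file) were left out. Breeds were compared by limma 3.58.1 under R 4.3.3 (eBayes, variance trend), using log2(RPKM + 0.1) of every gene that reached 0.5 RPKM in 3 or more libraries. The pseudocount understates the change of low genes. P-values test the breed difference against the spread between pigs of a breed, with each gene's variance drawn towards a trend over all genes.

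Reads were recovered from the RPKM for 19509 of 19612 genes above 0 (99.47%), with 99.97% of values whole within 0.05. APOA1 was not resolved. The design held a test for counts, which was not used because the files hold RPKM. The miRNA libraries were not used here.

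The members and the lists of genes were chosen with earlier results of these data known. Named are the 4 members, the neighbours, in each list the genes called and up to 4 more with the largest absolute log2 fold change, CREB3L3, HNF4A, PPARA and APOB, the most abundant gene of each marker list, and the 5 genes most like each member. APOE, PCK1 and NXPE2 were named after their values were seen. Some genes that this rule names are not reported here. Symbols were matched to RefSeq (Sscrofa11.1), which held 151 of 162 listed symbols. The alternatives were pseudocounts of 0.01 and 1, no filter, median scaling, quantile normalization, voom on recovered reads, the replicate block and each library left out in turn. Python 3.11.15, pandas 2.3.3 and numpy 2.4.6 were used for the tables.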

Additional observations from a re-analysis of the deposited data

How the results depend on the processing

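The log2 fold changes of the 4 cluster genes kept their direction in every alternative run, between 7.77 and 9.45 for APOA4, 2.91 and 3.91 for APOA5, 0.48 and 1.19 for APOA1 and 0.22 and 0.82 for APOC3. APOA1 has no value from voom, since its reads were not resolved. In place of 310 genes called there were 200 with no filter, 199 with a pseudocount of 0.01, 253 with the replicate block and 79 (without LD1) to 406 (without JH3) with each library left out. With a pseudocount of 1, median scaling, quantile normalization and voom 340, 384, 398 and 412 genes were called. In place of 11 listed genes called outside the cluster there were 6 with no filter, 7 with a pseudocount of 0.01, 5 with the replicate block and 2 (without LD1) to 13 (without JH3) with each library left out. With the replicate block 6 of the 11 lost their calls, with limma's adjusted p of 0.0526 for ZNF259, 0.0596 for HAMP, 0.0725 for FADS1, 0.0704 for CDX2, 0.0640 for LRAT and 0.0526 for HBB. COL1A1 alone of the 11 kept its call in all alternatives. Of 571 alternative values of 44 named genes, 57 lost and 4 gained a call and 9 changed sign. The changes of sign all came with a library left out, where PAFAH1B2 ranged from -0.18 to 0.013, SIDT2 from -0.042 to 0.42, PCSK7 from -0.43 to 0.19, RNF214 from -0.10 to 0.20 and CEP164 from -0.30 to 0.21, and the cause was not tested. Deviations from the breed mean correlated between libraries with the same number at -0.02, 0.05 and 0.18, the last being the highest of all pairs. This correlation takes out any shift of a whole library. The medians of log2 expression ran alike by number, at 2.36, 2.42 and 2.10 in JH1, JH2 and JH3 and 2.35, 2.39 and 2.10 in LD1, LD2 and LD3. Whether libraries of the same number shared a batch cannot be decided from these values. The main fit used no pairing because the paper describes no pairing of pigs. JH1 correlated best with LD2, so not every library was most like its own number. APOA4 in LD1 and LD2 rests on 30 and 34 reads.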
